A study of Homo sapiens with 5 samples.

Results

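COL26A1, which encodes the alpha chain of type XXVI collagen, was the 1 collagen gene that could be followed with the probe set names used here. Collagen genes were defined as those with a symbol made of COL, a number, A and a number, without antisense transcripts or pseudogenes. The human RefSeq annotation holds 44 such genes, and the annotation of the array given here named a probe set for 1 of them, among 14812 named genes in all. Searching by gene identifier and by transcript accession found the same 1 gene. Of 11 fibrillar and 8 basement membrane collagens 0 had a named probe set, so neither class was analysed here, and of the 25 other collagens 1 did. The annotation left 28772 of the 44607 probe sets unnamed, and other collagens may be measured among them. It also named 3 antisense transcripts of collagen loci, which the definition leaves out.

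The samples were 5 clones of TE7, a human esophageal carcinoma line that genotyping outside these data traced to a squamous origin. In 3 of the clones the transduced construct was pMIRNA1-puro-CDH26, which expresses the cadherin CDH26, and in 2 it was pMIRNA1-puro-control. Each clone grew from a single cell after transduction, and all were kept for 24 h in RPMI with 1.8 mM calcium before RNA was taken. One Affymetrix Gene 2.0 ST array was hybridised per clone, and the values are logarithms, taken here as log2, relative to the control mean. No level is kept, so whether a transcript or a cell type marker was present at all could not be read from the table. The control clones always have equal values of opposite sign by that construction. Differences between clones of 1 construct include clonal variation as well as array error, and precision is limited by how few arrays there are.

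Collagens are extracellular matrix proteins built from a triple helix whose chains carry glycine at regular intervals. Fibrillar types form the fibres of connective tissue, type IV collagen forms the sheet of the basement membrane beneath epithelia, and other types decorate fibres, anchor the basement membrane or span the cell membrane. Collagen XXVI is a small, secreted member with an EMI domain, a cysteine-rich fold shared with the emilins. It was first described in mouse, where it was found in developing testis and ovary and was identified through binding to the collagen chaperone HSP47.

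The start of COL26A1 is shown because it identifies the single member. The sequence below, from RefSeq (GRCh38.p14, plus strand, chr7:101362625-101362924), runs from 250 bases before to 50 bases after the annotated start. Capitals mark a match to GCGTGGGCG, a motif bound by the zinc finger factor EGR1.
COL26A1 promoter: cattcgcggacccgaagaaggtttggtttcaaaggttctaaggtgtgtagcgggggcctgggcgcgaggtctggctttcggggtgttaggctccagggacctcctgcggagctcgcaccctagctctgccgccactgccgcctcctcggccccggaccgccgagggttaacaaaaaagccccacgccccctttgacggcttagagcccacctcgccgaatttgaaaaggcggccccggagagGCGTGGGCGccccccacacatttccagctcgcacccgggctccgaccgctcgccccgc
Of its bases 66.7% were G or C, against a median of 58.7% over 35116 RefSeq promoter windows of the same length, and it held 29 CG dinucleotides against a median of 14. The capitalised motif begins at −8 relative to the annotated start and was found once on the given strand and not on the other. It occurred, on either strand, in 0.795% of all the windows. No match was found on either strand for the GC box GGGCGG (in 45% of windows), the TATA box TATAAA (11.5%), the CCAAT box CCAAT (34.6%) or the E-box CACGTG (7.26%). The capitalised match overlaps none of these, and each match is a description of letters only.

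The construct itself was checked first. The CDH26 transcript had log2 values of 2.87, 3.01 and 2.63 in CDH26 clones 1, 2 and 3, against 0.01 and −0.01 for control clones 1 and 2. The groups did not overlap. Across all 14812 named genes, limma with Benjamini-Hochberg adjustment called 0 at an adjusted p of 0.05, CDH26 included (adjusted p = 0.25), while 1113 had an unadjusted p under 0.05 (520 higher, 593 lower). Without control clone 1 the count of called genes was 186, COL26A1 not among them, in a test that lends the remaining control clone the spread of the CDH26 group.

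COL26A1 differed little between CDH26 and control clones, and its groups overlapped. The log2 values were 0.064, 0.0089 and 0.17 in CDH26 clones 1, 2 and 3, against −0.0089 and 0.0089 for control clones 1 and 2. CDH26 clone 3 stood highest, CDH26 clone 1 came next, and CDH26 clone 2 had the same value as control clone 2 within a tolerance of 1e-05. The mean was 0.080 ± 0.081 in CDH26 clones (SD, n = 3) and 0 ± 0.013 in control clones (SD, n = 2). The difference was 0.080 ± 0.056 log2 units (SE), a 1.06-fold difference, with a 95% interval of −0.077 to 0.24. In limma the unadjusted p was 0.226 and the Benjamini-Hochberg adjusted p over all genes was 0.631, so the collagen genes called numbered 0 of 1, beside 0% of all genes. The interval runs from 0.948-fold to 1.18-fold, and larger differences in either direction lie outside it. It rests on 2 control clones, and with no level kept it cannot show whether the transcript was present. In RNA from whole cultures, fewer cells with a transcript and less of it per cell cannot be told apart. Without CDH26 clone 3 the difference was 0.036, and leaving out CDH26 clone 2 gave 0.12.

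**Figure D1:**
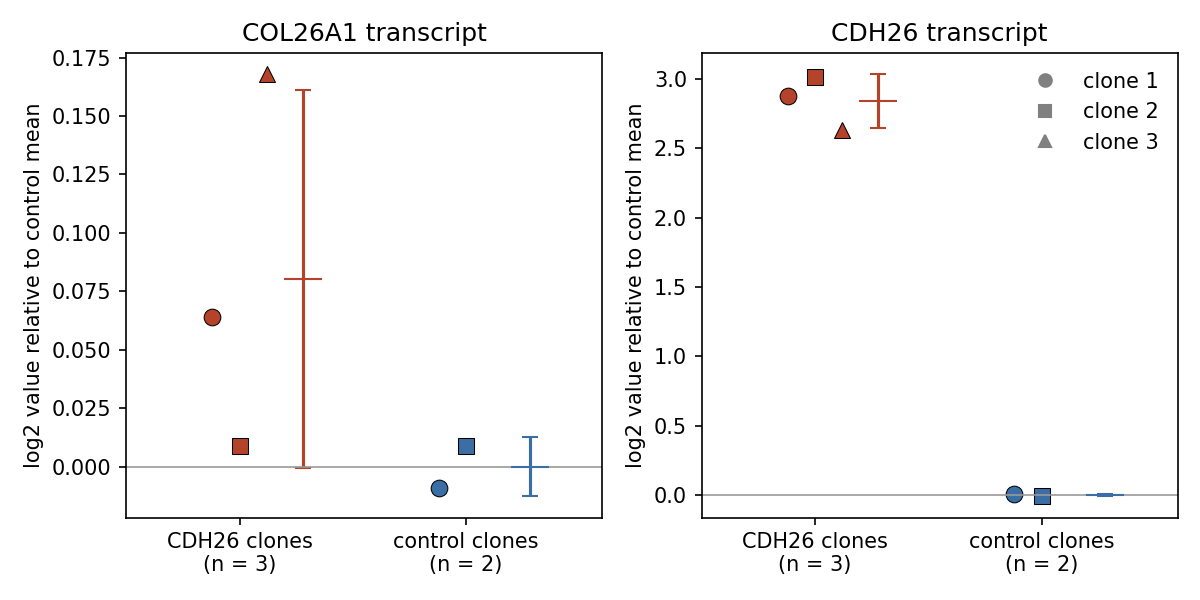
Log2 values relative to the control mean (vertical axes, scaled separately) of COL26A1 on the left and CDH26 on the right, for 3 CDH26 clones and 2 control clones. Symbols are clones, and the bar beside them is the mean with 1 SD; for COL26A1 the lowest CDH26 clone lies level with control clone 2 at 0.0089, whereas for CDH26 the groups lie far apart.

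Set against all named genes, COL26A1 lay near the middle in the size of its difference. Of the 14812 genes 46.2% had a larger absolute difference between the groups, the median absolute difference being 0.070 log2 units. Its range over the 5 clones was 0.18 log2 units, against a median of 0.24 for all genes, and 61.5% of genes had a wider one. The median signed difference of all genes was 0, on arrays that each had a median of 0 as deposited, so this value is no finding about the clones. The largest gap among the 10 pairs of clones was 0.18, between CDH26 clone 3 and control clone 1, and 20.2% of genes had a larger gap in that pair. Within the CDH26 group clones 2 and 3 were 0.16 apart in COL26A1, and 22.1% of genes were farther apart there. The control clones were 0.018 apart, a gap exceeded by 76.5% of genes. The tie between CDH26 clone 2 and control clone 2 was shared by 17.3% of genes, and the reason for such ties is not given in the sources used here.

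Collagen chains are modified in the endoplasmic reticulum, trimmed outside the cell, bound by receptors and, in basement membranes, joined to laminin-linked partners. The genes of these 4 steps were read from the same fit, from lists of 59 symbols of which 26 were named. Of the 26, 0 passed the adjusted threshold, and the lowest adjusted p was 0.626. The adjustment gave this same value to genes among the 26 with limma unadjusted p from 0.00917 to 0.197, so it does not rank them. At an unadjusted p under 0.05, 1 was higher and 1 lower in CDH26 clones, where 3.51% of all genes were higher and 4% lower. The CDH26 clones were wholly above the controls in 3 of the 26 genes (11.5%, against 8.98% of all genes) and below them in 3 (11.5%, against 9.93%). These shares are close to those of all genes. The median difference of the 26 was 0, which is the value of the 2 genes tied on every array. It therefore says little, and the median of 0 over all genes is no finding either. In 15 of the 26 the absolute difference was larger than in COL26A1, where 46.2% of all genes had a larger one.

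Among modifying enzymes and chaperones 9 of 21 were named, with a median difference of 0.0018 log2 units and a range from −0.55 to 0.20. In limma 1 of the 9 was lower at an unadjusted p under 0.05, against 4% of all genes. The prolyl 4-hydroxylases, the lysyl hydroxylases and HSP47 (SERPINH1) had no named probe set and were not analysed here. COLGALT1, which attaches galactose to hydroxylysine of collagen, was at −0.41, −0.50 and −0.31 in CDH26 clones 1, 2 and 3, against 0.078 and −0.078 for control clones 1 and 2. All CDH26 values were under both control values, and the difference was −0.41 ± 0.084 (SE; unadjusted p = 0.00917, limma adjusted p = 0.626). P3H2, a prolyl 3-hydroxylase that acts on type IV collagen, had values of −0.52, −0.62 and −0.50 with the CDH26 construct, against −0.29 and 0.29 with the control construct. The CDH26 clones lay close together and below both control clones, which differed from each other by more than the CDH26 clones did. Its difference was −0.55 ± 0.20 (SE; unadjusted p = 0.0517, limma adjusted p = 0.626), or −0.84 when control clone 1 was left out and −0.26 when control clone 2 was. PPIB, the proline isomerase cyclophilin B of the 3-hydroxylation complex, stood at 0.017, 0.046 and 0.047 in the CDH26 group, against −0.00079 and 0.00079 in the control group. These groups did not overlap either, at a difference of 0.037 ± 0.020 (SE; limma adjusted p = 0.626). The remaining members were the prolyl 3-hydroxylase P3H1 and its partner CRTAP, the P3H family members P3H3 and P3H4, which are known as partners of a lysyl hydroxylase, the ion channel TMEM38B and the secretory transcription factor CREB3L1. They had differences from −0.093 to 0.20, and their groups overlapped.

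For removal of propeptides 5 of 8 genes were named, with a median of 0.0097. In limma 1 of the 5 was higher at an unadjusted p under 0.05, against 3.51% of all genes. TLL1, a tolloid-like relative of the procollagen C-proteinase, measured 1.12, 0.80 and 0.39 in CDH26 clones 1, 2 and 3, against −0.15 and 0.15 for control clones 1 and 2. No CDH26 value was as low as a control value, with clone 3 nearest to them. The difference was 0.77 ± 0.26 log2 units (SE), a 1.71-fold difference (unadjusted p = 0.042, limma adjusted p = 0.626). BMP1, the C-proteinase itself, had values of −0.42, −0.36 and 0.018 with the CDH26 construct, against −0.0038 and 0.0038 with the control construct. Here CDH26 clone 3 lay above both control clones while clones 1 and 2 lay below, so the groups overlapped (difference −0.26 ± 0.16 (SE), or −0.39 without CDH26 clone 3; limma adjusted p = 0.626). TLL2 differed by 0.076 ± 0.049 (SE; limma adjusted p = 0.626), with CDH26 clone 3 level with control clone 2, or by 0.0068 and 0.15 when control clone 1 or 2, in that order, was left out. The enhancer proteins PCOLCE and PCOLCE2 differed by 0.0097 and −0.041.

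**Figure D2:**
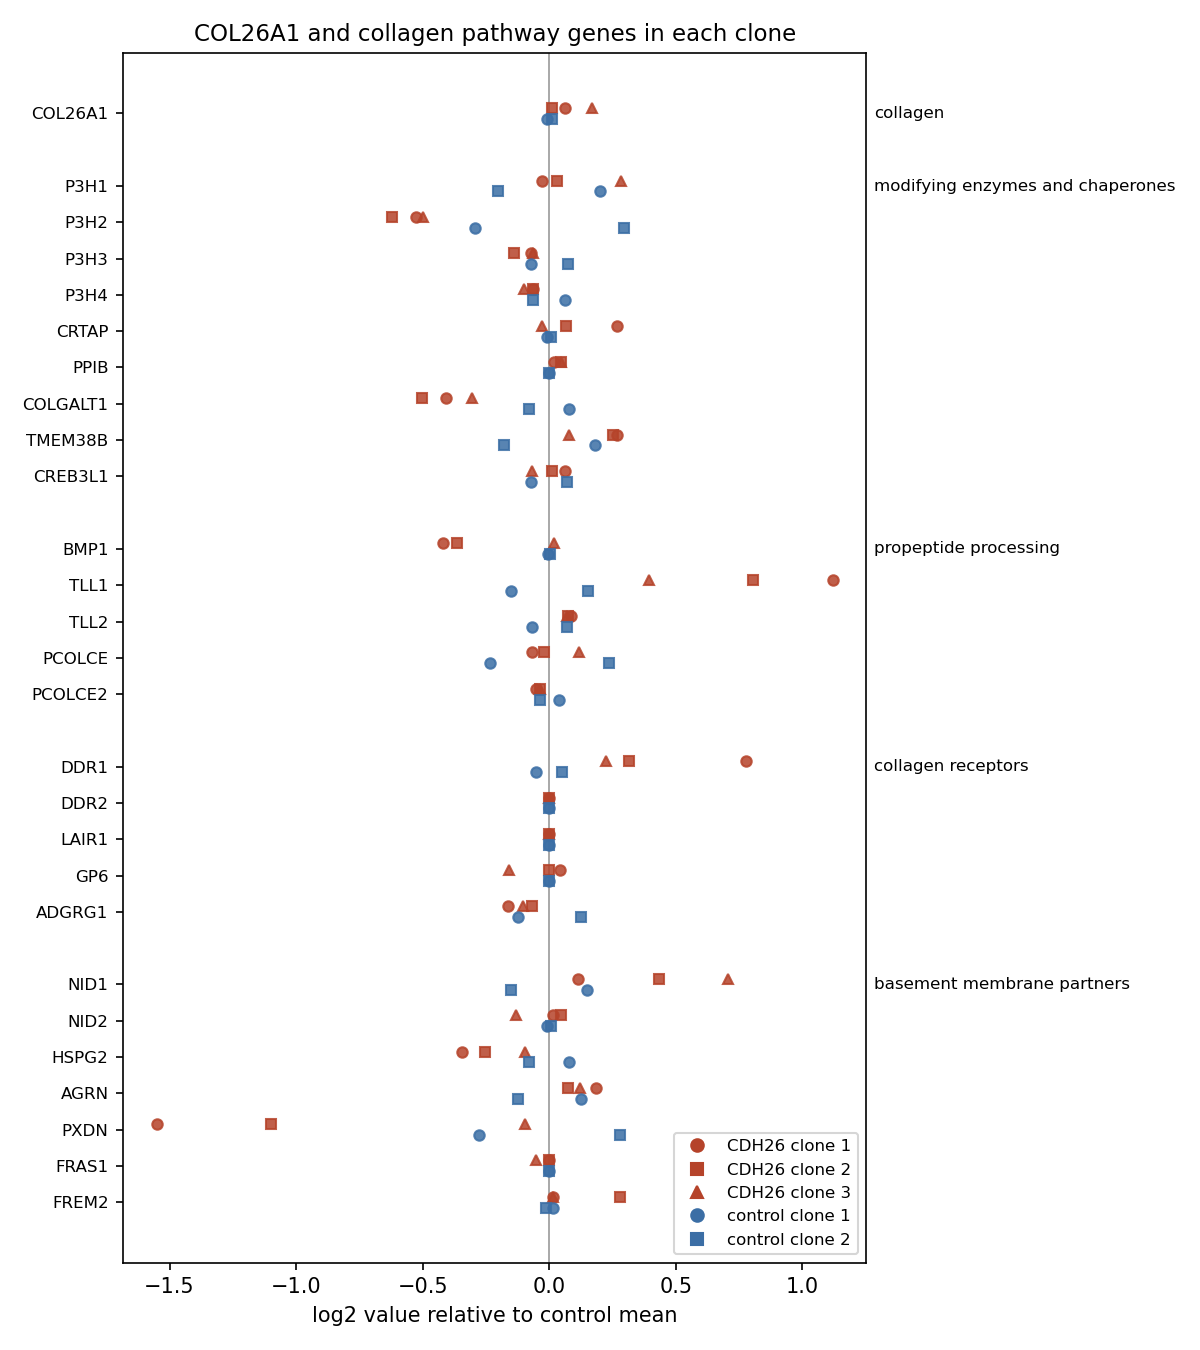
Log2 value relative to the control mean (horizontal axis) of COL26A1 and the 26 named pathway genes (vertical axis, grouped by list) in each clone. CDH26 clones are red and drawn just above the control clones, which are blue; TLL1 lies apart to the right and COLGALT1 and P3H2 to the left, while in PXDN and BMP1 CDH26 clone 3 departs from the other CDH26 clones.

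Of 12 collagen receptors 5 were named, with a median of 0. The receptor tyrosine kinase DDR1, which binds fibrillar and type IV collagens, measured 0.78, 0.31 and 0.23 in the CDH26 group, against −0.051 and 0.051 in the control group. The groups did not overlap, and CDH26 clone 1 was the highest. The difference was 0.44 ± 0.20 (SE; unadjusted p = 0.0923, limma adjusted p = 0.626), or 0.27 without CDH26 clone 1. Its 4 probe sets gave differences from 0.43 to 0.45. ADGRG1, an adhesion G protein-coupled receptor for type III collagen, differed by −0.11 ± 0.089 (SE; limma adjusted p = 0.648), and by 0.013 without control clone 2. The platelet collagen receptor GP6 differed by −0.039 ± 0.072 (SE; limma adjusted p = 0.84), and by 0.022 without CDH26 clone 3. DDR2 and LAIR1 had the value 0 on every array.

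Of 18 partners in the basement membrane 7 were named, and the laminins were not analysed here. The median difference was −0.017. Perlecan (HSPG2), a heparan sulphate proteoglycan, had values of −0.35, −0.26 and −0.094 with the CDH26 construct, against 0.078 and −0.078 with the control construct. The groups did not overlap, although CDH26 clone 3 lay next to control clone 2, and the difference was −0.23 ± 0.10 (SE; limma adjusted p = 0.626; −0.15 without control clone 1). Nidogen 1 (NID1), which links laminin to type IV collagen, measured 0.11, 0.43 and 0.71 in the CDH26 group, against 0.15 and −0.15 in the control group. CDH26 clone 1 lay between the control clones (difference 0.42 ± 0.22 (SE); 0.27 without CDH26 clone 3 or without control clone 2). Peroxidasin (PXDN), which forms the sulfilimine bonds that crosslink type IV collagen, stood at −1.55, −1.10 and −0.096 in the CDH26 group, against −0.28 and 0.28 in the control group. Clones 1 and 2 stood far below the controls and clone 3 between them. The PXDN difference was the largest among the 26 genes, −0.91 ± 0.52 (SE; limma unadjusted p = 0.156, adjusted p = 0.626). It was −0.60 without CDH26 clone 1 and −1.32 without CDH26 clone 3. NID2, AGRN, FRAS1 and FREM2 had differences from −0.024 to 0.13, with overlapping groups.

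**Figure D3:**
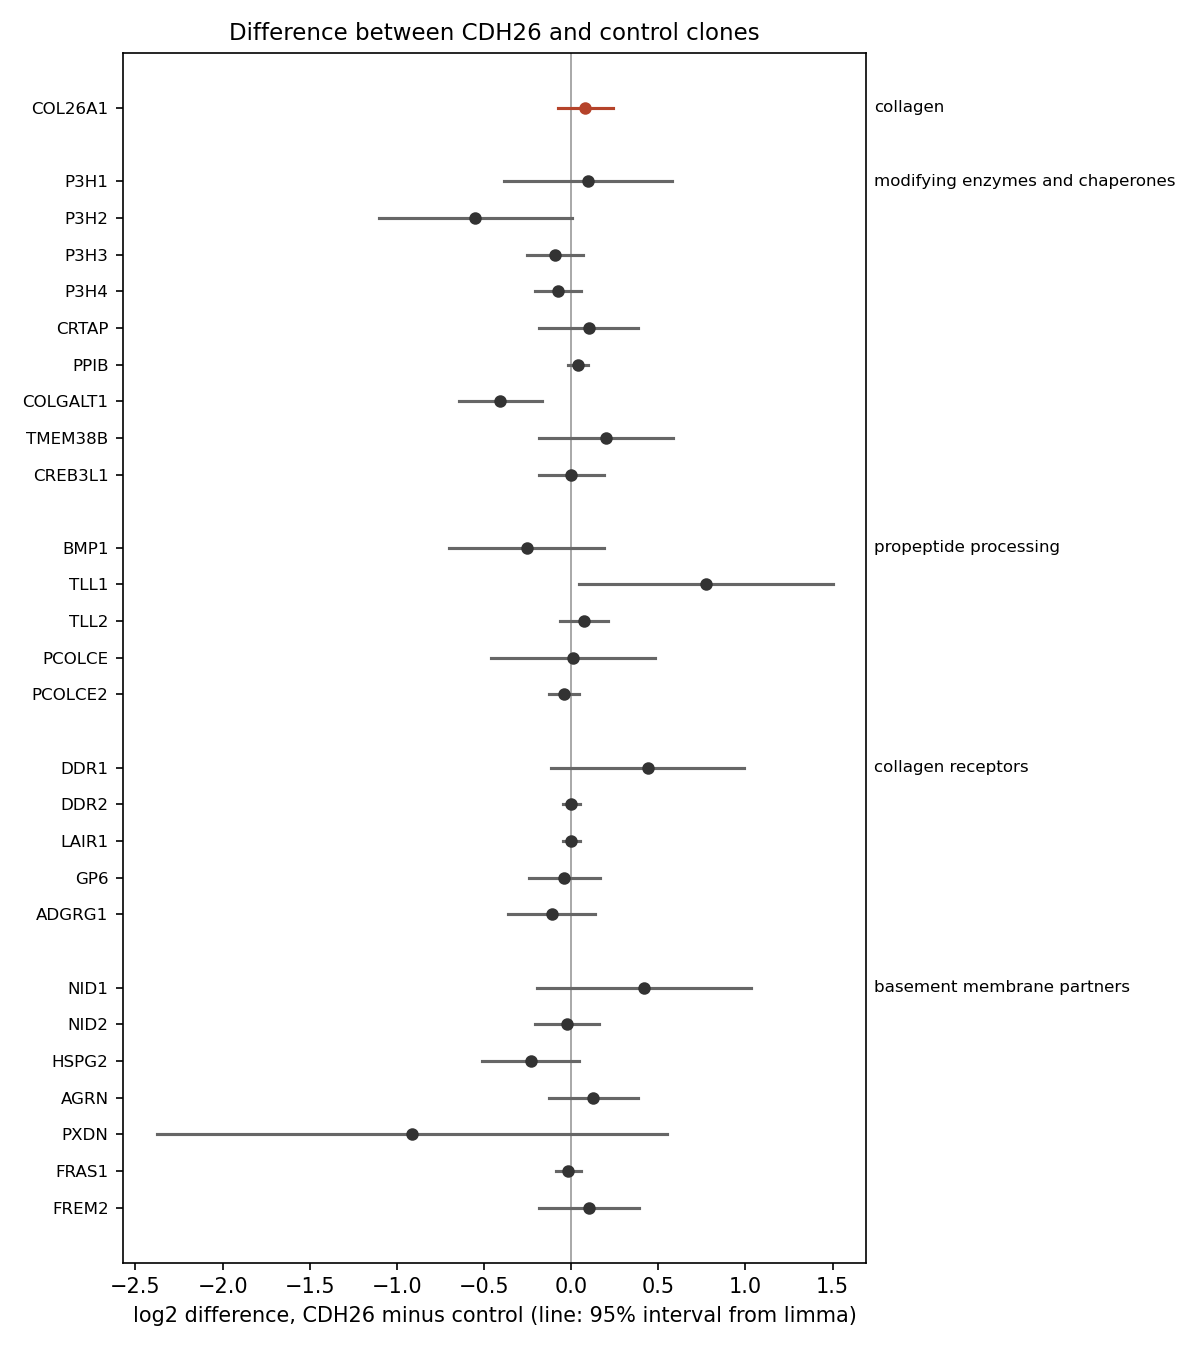
Log2 difference, CDH26 minus control (horizontal axis), of COL26A1 in red and the 26 named pathway genes in dark grey, with 95% intervals from limma as lines. The intervals of COLGALT1 and TLL1 are the 2 that leave out 0, before adjustment over all genes; that of COL26A1 includes it.

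Markers of the cell types that make or border collagen matrix were set beside these values. Of 12 fibroblast and smooth muscle markers 7 were named, with medians of 0.051, 0.015 and 0 in CDH26 clones 1, 2 and 3, against −0.025 and 0.025 for control clones 1 and 2. Of the 7, 4 had a positive and 3 a negative difference, from −0.67 in MFAP5, a microfibril protein, to 1.59 in LUM. The median difference was 0.022, and 1 of the 7 was higher at an unadjusted p under 0.05 in limma, against 3.51% of all genes. In 1 of the 7, against 8.98% of all genes, namely LUM, which encodes the collagen-binding proteoglycan lumican, the CDH26 values were all above the control values (limma adjusted p = 0.626). Of 10 squamous epithelium markers 6 were named, with medians of 0.64, 0.71 and 0.52 in the CDH26 group, against 0.29 and −0.29 in the control group, and in 4 of the 6 the CDH26 clones lay wholly above, against 8.98% of all genes. Of the 6, 5 had a positive difference and 1, EPCAM, a negative one of −0.22, with overlapping groups. EPCAM is an epithelial marker that is not particular to squamous epithelium, and it stays in these counts and medians as listed. The median difference of the 6 was 0.62 log2 units and the highest was 2.72. At an unadjusted p under 0.05 in limma, 2 of the 6 were higher, against 3.51% of all genes. None was called, and the lowest limma adjusted p was 0.626. A different value on each array was found in 5 of the 6, against 46.3% of all genes. Of 6 endothelial markers 3 were named, with differences from −0.018 to 0.014. The part of these markers in the values of the collagen pathway genes was not tested.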

How the data were processed

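RNA from 3 CDH26 clones and 2 control clones, grouped by the labels, was measured on 1 array each. The authors' deposited values are logarithms relative to the control mean, taken here as log2; the control values of every probe set sum to 0 within 1e-06. The submitters' processing notes name Affymetrix Expression Console; version, summarisation and build: not given in the sources used here. The array's annotation named 15835 of 44607 probe sets. Values were averaged over the probe sets of each of 14812 genes, with no filter, and fitted with limma 3.58.1 in R 4.3.3 (lmFit, eBayes, group as the only term, two-sided, Benjamini-Hochberg over all genes, threshold 0.05). The step was tested on simulated data, drawn independently for each array. Those data did not reproduce ties between some of the arrays or the mirrored control values, so the test does not cover these traits. With 2 and 3 clones the smallest p an exact permutation allows is 0.1, so none was run. The named pathway genes are the 3 per list lowest in unadjusted p; the other members are given more briefly, by count, range or difference. Clone values were meant for collagens with a difference of at least 0.3, an unadjusted p under 0.05 or separate groups; COL26A1 met none of these and its values are given as the only member. LUM, MFAP5 and EPCAM were named after their values were seen, as were the letters of the EGR1 motif. The definition of collagen genes and all lists were chosen with earlier results of these data known. Figures were drawn with matplotlib 3.10.9.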

Additional observations from a re-analysis of the deposited data

How the results depend on the processing

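COL26A1 stayed positive and uncalled under each alternative run. Its difference was 0.036 to 0.12 with 1 clone left out in turn and 0.042 with array weights. Taking the values as natural logarithms only rescales them, and gave 0.12. With single probe sets, trended robust variance or median-centred arrays it was 0.080, and these settings could not have moved it. COL26A1 has 1 probe set, the variance setting leaves the difference itself unchanged, and every array already had a median of 0. The tie of COL26A1 kept it out of the test restricted to genes without tied arrays. In that restricted test CDH26 was called (2.84, adjusted p = 0.0106, limma), 1 gene in all. The number of genes called was 0 to 186 with 1 clone left out (186 without control clone 1) and 0 under the other alternatives, among them an adjusted threshold of 0.1. CDH26 was at 2.75 to 2.94 with 1 clone left out.

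The labels give clone numbers in both groups and state no pairing between them. Deviations from the group means correlated at −0.198 (clones 1) and −0.205 (clones 2) over 14812 genes. Because the control values mirror each other, both correlations rest on 1 control contrast. They cannot decide whether clones of the same number were handled together. With a replicate block, which leaves 1 residual degree of freedom, COL26A1 was at 0.036 and CDH26 at 2.94, and 0 genes were called. Of 142 values of the 12 named pathway genes under the alternatives, 3 changed sign: ADGRG1 was at −0.24 to 0.013 with 1 clone left out (0.013 without control clone 2), and GP6 at −0.080 to 0.022 (0.022 without CDH26 clone 3) and at 0.022 with the replicate block. Class medians of fibrillar and basement membrane collagens, and other groupings of those classes, were not run because they had no named member.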
